A study of Mus musculus with 50 samples.

Results

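The genes described here are 45 protein-coding genes for splicing factors and proteins of small nuclear ribonucleoproteins (snRNPs), out of 35750 genes in the deposited table. They were chosen by symbol, as every protein-coding gene named Snrp, Sf3a, Sf3b, Srsf or Lsm with its letter or number. The pattern also matched Snrpert, a processed pseudogene, which was not counted. By role they comprised 8 proteins of the Sm ring, 4 proteins specific to the U1 or U2 snRNP, 9 subunits of the SF3A and SF3B complexes, 11 SR proteins, the 8 proteins LSm1 to LSm8, and 5 other LSm proteins.

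RNA was sequenced from wild-type C57BL6/J mouse embryos in 50 libraries, each from a pool of 5 embryos. Duxbl embryos had been injected with 200 ng/µl of mRNA coding for V5-tagged Duxbl joined through a 2A peptide to nuclear mCherry. The mCherry embryos had received mRNA for the nuclear mCherry protein alone at the same 200 ng/µl, and uninjected embryos had received none. Late 1-cell embryos (late 1C) were taken 28 to 30 h after hCG, the hormone that triggers ovulation, early 2-cell embryos (early 2C) at 32 h and late 2-cell embryos (late 2C) at 48 h. Duxbl embryos gave 4, 5 and 5 libraries at these stages, and mCherry and uninjected embryos 6 each. Duxbl is a double homeobox transcription factor of the mouse, here supplied from injected mRNA on top of the embryo's own genes. Nothing in the labels says that the pools came from separate matings, so p-values measure the spread between these libraries.

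Introns are removed from transcripts by the spliceosome, which is built from U1, U2, U4, U5 and U6 snRNPs. Each snRNP other than U6 carries a ring of Sm proteins on its RNA, while U6 carries the related LSm ring. U1 recognises the start of an intron and U2, together with SF3A and SF3B, the branch site near its end. SR proteins bind exons and help both snRNPs to find their sites. In the mouse zygote most mRNA was laid down in the oocyte. It is degraded while the embryo's own genome becomes active, with the main wave of transcription in the late 2-cell embryo.

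The deposited values of the 50 libraries summed to 12.04 to 26.96 M per library (late 1C 22.5 to 26.96, early 2C 22.3 to 26.4, late 2C 12.04 to 22.5). They appear to be scaled rather than raw read counts, since whole numbers are skipped in 19 of the 50 libraries, so these totals were not taken as depths and no counting interval was computed. At late 2C the totals were 18.77 to 22.53 M in Duxbl and 12.76 to 18.75 M in mCherry embryos. Uninjected embryos had 12.04 to 18.21 M. Every Duxbl total was above every control total at this stage, so total and treatment cannot be told apart there. Levels are given in CPM, the deposited value per M of library total, corrected by a TMM factor (trimmed mean of M values) over all 50 libraries, where the M of CPM and of the totals stands for mega. Fold changes are differences of group means of log2(CPM + 1), tested with limma, and a gene was called at a Benjamini-Hochberg adjusted p under 0.05 over all genes tested. A CPM is a share of the library, so a lower share and less RNA per embryo cannot be told apart, nor can a change in every blastomere and a change in some of them.

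Promoters were available for 38 of the 45 genes in RefSeq (GRCm38.p6, 300 bases around the start of the gene, most of them before it). The following 5 were picked by hand from members called at late 2C and are not the 5 with the largest changes. Snrpd2 (chr7:19149588-19149887), Snrpc (chr17:27839837-27840136) and Sf3b6 (chr12:4817358-4817657) were lower in Duxbl embryos, and Snrpb2 (chr2:143062819-143063118) and Srsf12 (chr4:33209022-33209321) were higher in them. All 5 are on the plus strand and are printed 5′ to 3′, with capitals marking the letters CCGGAAG, the core bound by many ETS factors, on either strand.
Snrpd2: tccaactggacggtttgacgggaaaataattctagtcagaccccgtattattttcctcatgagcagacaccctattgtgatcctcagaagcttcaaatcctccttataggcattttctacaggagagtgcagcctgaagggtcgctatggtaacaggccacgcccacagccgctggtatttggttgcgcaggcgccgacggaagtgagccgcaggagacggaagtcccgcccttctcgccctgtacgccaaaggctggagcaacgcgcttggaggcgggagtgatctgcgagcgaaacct
Snrpc: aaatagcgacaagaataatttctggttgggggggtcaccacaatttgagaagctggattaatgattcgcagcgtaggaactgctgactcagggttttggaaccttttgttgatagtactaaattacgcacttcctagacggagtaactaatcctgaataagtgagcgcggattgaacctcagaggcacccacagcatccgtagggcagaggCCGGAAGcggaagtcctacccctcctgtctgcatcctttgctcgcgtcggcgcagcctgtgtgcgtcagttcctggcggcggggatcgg
Sf3b6: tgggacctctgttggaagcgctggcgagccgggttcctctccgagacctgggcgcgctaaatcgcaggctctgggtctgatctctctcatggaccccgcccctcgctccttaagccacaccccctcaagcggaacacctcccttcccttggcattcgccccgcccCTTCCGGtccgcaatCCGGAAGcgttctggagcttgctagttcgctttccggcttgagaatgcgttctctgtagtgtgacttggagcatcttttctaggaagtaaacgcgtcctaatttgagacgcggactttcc
Snrpb2: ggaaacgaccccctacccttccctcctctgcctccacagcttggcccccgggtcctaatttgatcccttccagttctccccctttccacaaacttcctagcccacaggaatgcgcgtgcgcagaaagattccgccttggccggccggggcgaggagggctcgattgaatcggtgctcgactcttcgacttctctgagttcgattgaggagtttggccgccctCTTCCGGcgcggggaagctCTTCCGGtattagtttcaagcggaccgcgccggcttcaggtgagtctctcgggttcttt
Srsf12: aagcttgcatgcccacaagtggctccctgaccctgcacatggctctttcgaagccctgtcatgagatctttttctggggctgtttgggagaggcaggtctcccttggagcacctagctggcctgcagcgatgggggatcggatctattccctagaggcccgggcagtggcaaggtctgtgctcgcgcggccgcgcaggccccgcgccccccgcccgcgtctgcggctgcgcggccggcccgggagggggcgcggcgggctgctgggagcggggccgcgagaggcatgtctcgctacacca

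The core was present once in the Snrpc window, in 2 copies in each of the Sf3b6 and Snrpb2 windows, and in neither the Snrpd2 nor the Srsf12 window. The window of Lsm14a, a member called higher, was also picked but is not printed, and it held no copy. Searched on both strands, CCGGAAG was in 15 of the 38 member promoters (39.5%) and in 9.12% of the 27025 promoters of the RefSeq table. By response at late 2C, 3 of 8 members called higher, 8 of 18 called lower and 4 of 12 not called held it. The GC box GGGCGG was in 28 member promoters (73.7%) and in 35.9% of all promoters, CCAAT in 15 (39.5% against 37.9%), TATAAA in 4 (10.5% against 14.2%) and AAGATGG, the core bound by YY1, in 2 (5.26% against 6.48%). These are matches of letters in a fixed window and carry no measurement of binding.

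At late 2C the transcripts of the splicing machinery stood apart between Duxbl and mCherry embryos, mostly with lower shares in Duxbl embryos. Of the 45 members, 33 were called, 24 lower and 9 higher, and 12 were not called. Among all 23052 genes tested, 56.2% were called, 29.0% lower and 27.2% higher, against 53.3% of members lower and 20% higher. The counts by role given below stand beside these shares of all genes, and no role was tested against them. The median log2 fold change of the members was -0.95, and that of all genes -0.04. The members' fold changes ran from -4.77 for Snrpc to 3.80 for Srsf12. In 23 members every Duxbl library lay below every mCherry library, and in 5 every Duxbl library lay above, where 19.6% and 15.0% of all genes tested did so. Summed over the 45 members, Duxbl embryos held 3759 ± 638 CPM (SD, n = 5), mCherry embryos 6498 ± 1247 CPM (SD, n = 6) and uninjected embryos 6374 ± 1191 CPM (SD, n = 6).

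**Figure D1:**
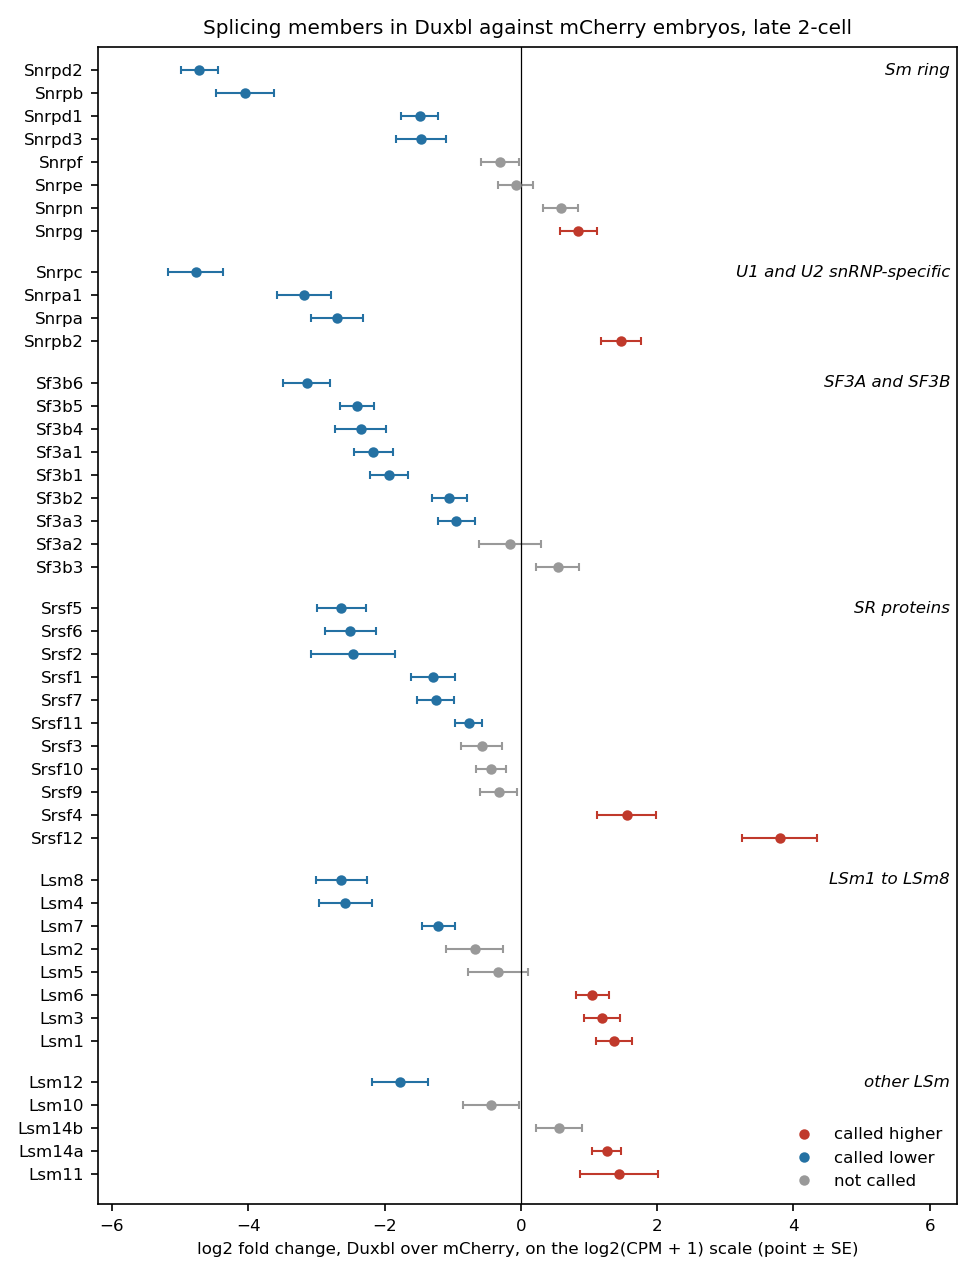
Log2 fold change of each of the 45 members in Duxbl over mCherry embryos at late 2C on the log2(CPM + 1) scale (horizontal axis, points with SE), grouped by role down the page and coloured by call. Members called lower reach -4.77 (Snrpc), and Srsf12 lies furthest to the right at 3.80.

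Within the Sm ring, whose 7 positions are filled by SmB, SmD1, SmD2, SmD3, SmE, SmF and SmG, 4 of 8 genes were called lower in Duxbl embryos, 1 higher and 3 not. Snrpd2 (mm39 chromosome 7, 18883647 to 18887467), which codes for SmD2, had 9.04, 5.77, 2.83, 4.66 and 8.04 CPM in the Duxbl libraries and 145 to 237 CPM (median 174) in the mCherry libraries. All 5 Duxbl libraries were far below the lowest mCherry library, and uninjected embryos had 128 to 227 CPM (median 153). The log2 fold change was -4.72 ± 0.27 (SE, adjusted p = 1.2e-11), which is 26.4-fold lower on the CPM + 1 scale. Snrpb (chromosome 2, 130013555 to 130021323), the gene of SmB, had 16.8, 0.88, 6.69, 5.55 and 14.4 CPM in Duxbl embryos and 79.5 to 203 CPM (median 132) in mCherry embryos. Its groups did not overlap either, although the Duxbl libraries spread widely, with library 3 lowest. The log2 fold change of Snrpb was -4.05 ± 0.42 (SE, adjusted p = 5.5e-08).

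Snrpd1 and Snrpd3, the genes of SmD1 and SmD3, were lower by a smaller step. Snrpd1 averaged 60.1 ± 16.7 CPM in Duxbl embryos (SD, n = 5) and 186 ± 72.2 CPM in mCherry embryos (SD, n = 6), a log2 fold change of -1.49 ± 0.27 (SE, adjusted p = 9.0e-05). For Snrpd3 the means were 25.6 ± 11.4 CPM (SD, n = 5) in Duxbl and 74.5 ± 28.3 CPM (SD, n = 6) in mCherry embryos, a log2 fold change of -1.46 ± 0.37 (SE, adjusted p = 0.00179). Neither pair of groups overlapped. Snrpg, the gene of SmG, was the one Sm gene called higher. It had 238, 245, 109, 199 and 334 CPM in Duxbl embryos, with library 4 low, and 94.8 to 181 CPM (median 121) in mCherry embryos, and the groups overlapped. Its log2 fold change was 0.84 ± 0.27 (SE, adjusted p = 0.0113). The Snrpg call was lost without Duxbl library 1, 3 or 7 (adjusted p = 0.0505 to 0.0900), with no filter (adjusted p = 0.0561) and with scaling by library totals alone (log2 fold change 0.49, adjusted p = 0.129). Snrpe (SmE), Snrpf (SmF) and Snrpn, whose product SmN is a close relative of SmB made mainly in brain, had log2 fold changes of -0.07, -0.31 and 0.58 and were not called.

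Levels of different genes were compared per kilobase (kb), with all annotated exons of a gene as its length, since the transcripts in use are not known. In Duxbl embryos at late 2C Snrpg stood at 143 ± 51.9 CPM per kb (SD, n = 5), the second highest of the 45 members, whereas Snrpd2 stood at 2.32 ± 0.959 (rank 42) and Snrpb at 4.495 ± 3.34 (rank 38). In mCherry embryos the same 3 genes were within 1 SD of each other, at 82.4 ± 22.1 for Snrpg, 71.1 ± 15.8 for Snrpd2 and 68.1 ± 20.5 for Snrpb (SD, n = 6, ranks 7, 9 and 10). In uninjected embryos they were at 70.8 ± 19.1, 61.8 ± 13.2 and 76.1 ± 14.6 CPM per kb (SD, n = 6). Snrpe was at 97.7 ± 24.2 CPM per kb in Duxbl (SD, n = 5), 113 ± 40.9 in mCherry and 93.8 ± 21.1 in uninjected embryos (SD, n = 6 each). Snrpd3 was at 7.45 ± 3.31 CPM per kb in Duxbl (SD, n = 5), 21.65 ± 8.23 in mCherry and 19.75 ± 10.3 in uninjected embryos (SD, n = 6 each). Levels within the ring were thus unequal in both controls too. With the longest coding transcript as the length, an alternative chosen after seeing the data, Snrpg, Snrpd2 and Snrpb were at 213, 4.27 and 7.65 CPM per kb in Duxbl embryos (ranks 2, 41 and 37) and at 123, 131 and 116 in mCherry embryos (ranks 12, 11 and 14). The levels per kb thus depend on the length taken, whereas the order of Snrpg above Snrpb above Snrpd2 in Duxbl embryos was the same with both.

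**Figure D2:**
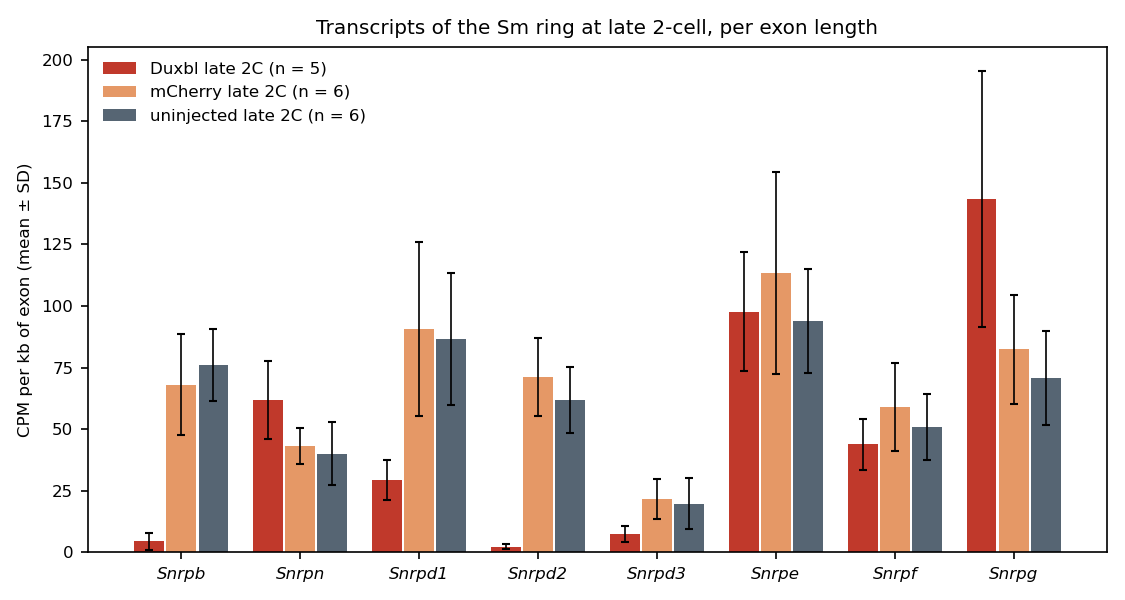
Mean level of the 8 Sm ring genes at late 2C in CPM per kb of exon (vertical axis from 0; bars are group means, whiskers SD, Duxbl n = 5, mCherry n = 6, uninjected n = 6). Snrpb, Snrpd2 and Snrpd3 are near the axis in Duxbl embryos, while Snrpg reaches 143 CPM per kb there.

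All 4 members that belong to U1 or U2 alone were called, 3 lower and 1 higher. Snrpc codes for the C protein of U1, which stabilises the pairing of U1 with the start of the intron. It had 12.2, 1.03, 14.4, 6.25 and 9.44 CPM in Duxbl embryos and 152 to 297 CPM (median 242) in mCherry embryos (chromosome 17, 28057124 to 28070942). The highest Duxbl library was thus far under the lowest mCherry library, and the log2 fold change of -4.77 ± 0.40 (SE, adjusted p = 3.0e-09) was the lowest among the members. Snrpa, the gene of the A protein of U1, which binds its RNA, averaged 19.6 ± 8.32 CPM in Duxbl (SD, n = 5) and 138 ± 49.9 CPM in mCherry embryos (SD, n = 6), a log2 fold change of -2.70 ± 0.38 (SE, adjusted p = 3.5e-06).

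The A′ and B″ proteins of U2, coded by Snrpa1 and Snrpb2, bind as a pair to U2 RNA, and their mRNAs went in opposite directions. Snrpa1 had 25.2, 15.2, 5.82, 12.6 and 15.6 CPM in Duxbl embryos and 81.8 to 229.6 CPM (median 142) in mCherry embryos, without overlap. Its log2 fold change was -3.18 ± 0.39 (SE, adjusted p = 6.2e-07). Snrpb2 had 199, 172, 164, 184 and 252 CPM in Duxbl embryos and 46.3 to 121 CPM (median 75.4) in mCherry embryos, so that every Duxbl library was above every mCherry library. The log2 fold change of Snrpb2 was 1.47 ± 0.29 (SE, adjusted p = 0.00017).

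SF3A and SF3B form the body of the U2 snRNP at the branch site. Of their 9 subunits 7 were called lower, none higher and 2 not called, with a median log2 fold change of -1.93. Their summed level was 306 ± 34.1 CPM in Duxbl (SD, n = 5) and 1116 ± 264 CPM in mCherry embryos (SD, n = 6). Sf3b6, the small subunit that touches the branch point, had 12.6, 12.1, 17.7, 17 and 41 CPM in Duxbl embryos and 94.7 to 306 CPM (median 179) in mCherry embryos. Library 7 was the highest of the Duxbl libraries and still below every mCherry library. The log2 fold change was -3.14 ± 0.34 (SE, adjusted p = 1.0e-07). Sf3b5, another small subunit, had 72.5, 49.1, 24.1, 62.4 and 65.2 CPM in Duxbl embryos and 261 to 356 CPM (median 285) in mCherry embryos, again without overlap. For Sf3b5 the log2 fold change was -2.41 ± 0.25 (SE, adjusted p = 6.9e-08).

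Sf3b1, the large scaffold of SF3B, averaged 71.1 ± 28.2 CPM in Duxbl embryos (SD, n = 5) and 283 ± 77.2 CPM in mCherry embryos (SD, n = 6), a log2 fold change of -1.93 ± 0.28 (SE, adjusted p = 4.8e-06). Sf3a1 (-2.17), Sf3b4 (-2.35), Sf3b2 (-1.05) and Sf3a3 (-0.95) were the others called lower, with adjusted p of 1.5e-06, 1.5e-05, 0.00146 and 0.00577. Sf3a3 was the only member called lower whose groups overlapped, with 30.8, 34.2, 50.2, 31.5 and 29.9 CPM in Duxbl embryos, library 4 highest, and 43.5 to 113 CPM (median 82.6) in mCherry embryos. Sf3a2 and Sf3b3 had log2 fold changes of -0.16 and 0.54 (adjusted p = 0.779 and 0.148). The value of Sf3b4 is uncertain, since 38.1% of the 75-base stretches of its transcripts also occur in Gm7935.

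Among the 11 SR proteins 6 genes were called lower, 2 higher and 3 not called, and the summed level was 1009 ± 266 CPM in Duxbl (SD, n = 5) and 2513 ± 527 CPM in mCherry embryos (SD, n = 6). Srsf5 had 102, 57.5, 68.4, 27.8 and 67.4 CPM in Duxbl embryos and 249.6 to 629.5 CPM (median 429.8) in mCherry embryos. Srsf6 had 15.8, 9.15, 13.5, 14.6 and 40.6 CPM in Duxbl embryos and 66.7 to 194 CPM (median 100.4) in mCherry embryos. Neither gene's groups overlapped, and Duxbl library 7 was the highest for Srsf6. The log2 fold changes were -2.63 ± 0.36 (SE, adjusted p = 2.2e-06) for Srsf5 and -2.50 ± 0.37 (SE, adjusted p = 6.4e-06) for Srsf6. Srsf2, which codes for SC35, the marker protein of nuclear speckles, had a log2 fold change of -2.46 ± 0.61 (SE, adjusted p = 0.00165). It had 46.5, 14, 19.1, 46.4 and 51.1 CPM in Duxbl embryos and 52.6 to 677 CPM (median 256) in mCherry embryos, whose libraries varied widely, and the groups did not overlap. The gene overlaps Mfsd11 and Mettl23 on the other strand, and the kit did not mark strand, so reads of these genes cannot be told apart.

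Srsf1, a general splicing activator, averaged 115 ± 18.5 CPM in Duxbl and 320.1 ± 139 CPM in mCherry embryos (SD, n = 5 and 6), a log2 fold change of -1.29 ± 0.32 (SE, adjusted p = 0.00168). Srsf7, whose product also takes part in mRNA export, had 254, 129.9, 157, 387 and 351 CPM in Duxbl embryos and 393 to 796 CPM (median 660.0) in mCherry embryos. The highest Duxbl library, 6, came just under the lowest mCherry library, and the log2 fold change was -1.25 ± 0.27 (SE, adjusted p = 0.000477). Srsf11 was called with the smallest fall, a log2 fold change of -0.77 ± 0.20 (SE, adjusted p = 0.00225). Srsf3, Srsf9 and Srsf10 had log2 fold changes of -0.58, -0.32 and -0.44 and were not called.

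Srsf12 had the highest fold change of the 45. It had 17.6, 5.18, 64.2, 21.4 and 8.53 CPM in Duxbl embryos, where library 4 was highest, and 0 to 2.46 CPM (median 0.185) in mCherry embryos. Every Duxbl library was above every mCherry library, and the log2 fold change was 3.80 ± 0.55 (SE, adjusted p = 5.3e-06). Uninjected embryos had 0.0505 to 2.59 CPM (median 0.227) at late 2C, so the transcript was close to 0 in both controls. Srsf12 (chromosome 4, 33208991 to 33233340) codes for an SR-related protein that counters other SR proteins in human cells. Srsf4 was also called higher (1.55 ± 0.43 (SE, adjusted p = 0.00401)), at the low mean level of 4.6 ± 2.11 CPM in Duxbl and 1.16 ± 0.981 CPM in mCherry embryos (SD, n = 5 and 6), with overlap.

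LSm2 to LSm7 are shared by the ring with LSm8, which binds U6 RNA in the nucleus, and the ring with LSm1, which acts in mRNA decay in the cytoplasm. The mRNAs of LSm8 and LSm1, which distinguish these rings, went opposite ways. Lsm8 had 45, 17.4, 5.52, 27.1 and 42.5 CPM in Duxbl embryos, lowest in library 4, and 108 to 198 CPM (median 157) in mCherry embryos. Lsm1 had 196, 265, 163, 343 and 481 CPM in Duxbl embryos and 74.6 to 140.0 CPM (median 116) in mCherry embryos. Neither gene's groups overlapped. The log2 fold changes were -2.64 ± 0.38 (SE, adjusted p = 4.1e-06) for Lsm8 and 1.37 ± 0.26 (SE, adjusted p = 0.000146) for Lsm1.

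Of the 6 shared subunits 2 were called higher, 2 lower and 2 were not called, where 27.2% of all genes were called higher and 29.0% lower. Lsm4 had 8.94, 10.6, 10.8, 9.56 and 3.66 CPM in Duxbl embryos, library 7 being the lowest, and 30.6 to 102 CPM (median 61.8) in mCherry embryos. Lsm3 had 61.9, 45.5, 76.5, 58.2 and 48.3 CPM in Duxbl embryos and 22.6 to 30.5 CPM (median 26.1) in mCherry embryos. The groups of both genes were apart, with log2 fold changes of -2.58 ± 0.39 (SE, adjusted p = 9.0e-06) for Lsm4 and 1.19 ± 0.27 (SE, adjusted p = 0.000623) for Lsm3. Lsm7 was called lower (-1.21 ± 0.24 (SE, adjusted p = 0.000215)) and Lsm6 higher (1.05 ± 0.24 (SE, adjusted p = 0.000699)). Lsm2 and Lsm5 had log2 fold changes of -0.68 and -0.33 and were not called. The summed level of LSm1 to LSm8 was 644 ± 186 CPM in Duxbl (SD, n = 5), 674 ± 125 CPM in mCherry (SD, n = 6) and 613 ± 106 CPM in uninjected embryos (SD, n = 6).

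Of the other LSm genes, Lsm14a and Lsm11 were called higher, Lsm12 lower, and Lsm10 and Lsm14b were not called. LSm14A is a component of P bodies, where untranslated mRNAs are held. Its gene had 529, 420.4, 988, 632 and 810.0 CPM in Duxbl embryos and 248 to 330.0 CPM (median 288) in mCherry embryos, with no overlap. The log2 fold change of Lsm14a was 1.26 ± 0.21 (SE, adjusted p = 2.7e-05). Lsm12, which codes for a protein with an LSm domain, had 10.03, 14.9, 13.6, 15.8 and 17.3 CPM in Duxbl embryos, a narrow range, and 23.7 to 101 CPM (median 67.1) in mCherry embryos. Its log2 fold change was -1.78 ± 0.41 (SE, adjusted p = 0.000852).

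LSm10 and LSm11 replace SmD1 and SmD2 in the U7 snRNP, which trims the ends of histone mRNAs. Lsm11 had 40.1, 30.0, 20.1, 35.8 and 33.5 CPM in Duxbl embryos and 7.32 to 24.7 CPM (median 10.4) in mCherry embryos, where library 5 was the highest and reached into the Duxbl range. The log2 fold change of Lsm11 was 1.44 ± 0.57 (SE, adjusted p = 0.0356). This call was lost without any 1 of Duxbl libraries 1, 3, 6 and 7 or mCherry libraries 1, 3, 4 and 7 (adjusted p = 0.0557 to 0.0931). It was also lost with library totals alone, with no filter and with a pseudocount of 0.1 CPM (adjusted p = 0.114, 0.0990 and 0.121). Lsm10 had 48.2, 273, 52.4, 251 and 216 CPM in Duxbl embryos, with libraries 1 and 4 low, and 145 to 244 CPM (median 195) in mCherry embryos. The groups overlapped and the log2 fold change of Lsm10 was -0.44 ± 0.41 (SE, adjusted p = 0.37).

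**Figure D3:**
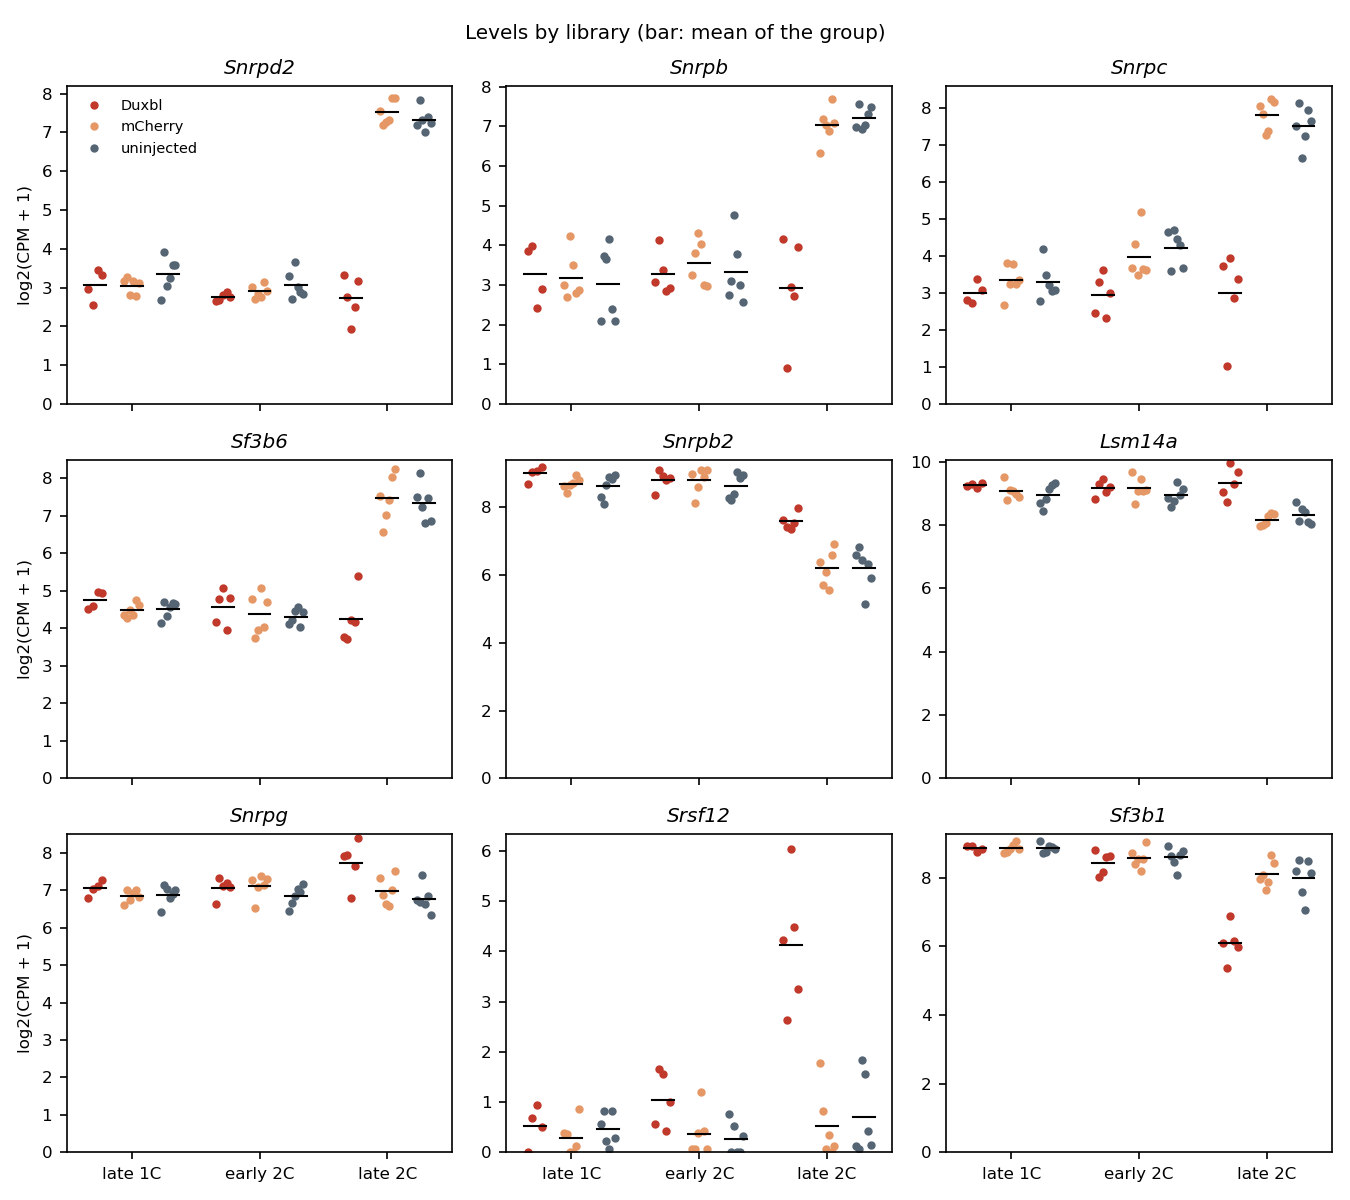
Levels of 9 members in every library (points, 1 per library; bars, group means; vertical axis log2(CPM + 1)) at the 3 stages, with Duxbl, mCherry and uninjected embryos from left to right at each stage. The groups overlap at late 1C and early 2C, although Snrpc is mostly lower in Duxbl than in mCherry embryos at early 2C. At late 2C Duxbl and mCherry embryos lie apart in all but Snrpg. Snrpd2 stays at 2.83 to 9.04 CPM in Duxbl embryos there and is at 145 to 237 CPM in mCherry embryos.

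At the earlier stages the same genes showed little difference. At late 1C limma called 0 members between Duxbl and mCherry embryos (0.0193% of all 20777 genes), 0 had an unadjusted p under 0.05, and voom also called 0. The members' log2 fold changes ran from -0.64 to 0.44. At early 2C limma again called 0 members (0.378% of all 21180 genes), and voom called 0. The unadjusted limma p was under 0.05 in 1014 of the 21180 genes, among them 2 members. The first of these was Snrpc, with 4.50, 8.85, 11.2, 4.02 and 7.03 CPM in Duxbl embryos and 10.1 to 35.2 CPM (median 11.6) in mCherry embryos. Its log2 fold change was -1.01 (adjusted p = 0.353), in the direction seen at late 2C. The other was Srsf12, with 0.472, 2.18, 1.95, 0.343 and 1 CPM in Duxbl embryos and 0.0425 to 1.29 CPM (median 0.171) in mCherry embryos, a log2 fold change of 0.66 (adjusted p = 0.745). Its groups overlapped. A level this low is compressed on the log2(CPM + 1) scale.

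Injection by itself gave no call among the members. Between mCherry and uninjected embryos limma called 0 of 45 members at each of the 3 stages, 0 had an unadjusted p under 0.05 at any of them, and voom called 0. No gene of the whole table was called either (0% at each stage). At late 2C the members' log2 fold changes between these groups ran from -0.43 to 0.68, with a median of 0.02.

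In the normal course, uninjected embryos changed most of these mRNAs between early and late 2C. At late 2C 17 members were called higher and 18 lower than at early 2C, and 10 were not called, while among all 28808 genes 30.8% were called higher and 26.3% lower. The median of the members was 0.09 and that of all genes 0.03. The split depended on scaling. With library totals alone 22 members were higher and 10 lower, and with median-of-ratios scaling 19 were higher and 12 lower, as the median of all genes shifted to 0.15 and 0.12. No called member changed sign.

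The largest rises were those of Snrpd2 and Snrpb. Snrpd2 had 128 to 227 CPM (median 153) at late 2C and 5.47 to 11.6 CPM (median 6.72) at early 2C in uninjected embryos, a log2 change of 4.26 ± 0.22 (SE, adjusted p = 1.2e-22). Snrpb had 120.5 to 188 CPM (median 144) at late 2C and 4.96 to 26.1 CPM (median 7.29) at early 2C, a log2 change of 3.90 ± 0.40 (SE, adjusted p = 4.3e-12). The largest falls were those of Snrpb2 and Lsm3. Snrpb2 had 34.7 to 113 CPM (median 83.6) at late 2C and 297 to 533 CPM (median 399) at early 2C, a log2 change of -2.41 ± 0.21 (SE, adjusted p = 4.1e-14). Lsm3 had 19 to 52.2 CPM (median 30.6) at late 2C and 88 to 150.2 CPM (median 121) at early 2C, a log2 change of -1.92 ± 0.19 (SE, adjusted p = 1.0e-12). In each of these 4 genes the 2 stages did not overlap.

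By role, 7 of 11 SR proteins rose in uninjected embryos and 2 fell, 3 of the 4 U1 and U2 proteins rose and 1 fell, and 4 of 9 SF3A and SF3B subunits fell and 2 rose. In the Sm ring 4 fell and 2 rose, among LSm1 to LSm8 3 fell and 2 rose, and of the other LSm genes 4 fell and 1 rose. Of all genes tested 30.8% rose and 26.3% fell, and no role was tested against these shares. Srsf7 and Lsm8 were among the genes that rose, with log2 changes of 3.16 and 3.20. The rise of Srsf5 (0.61) was lost without uninjected early 2C library 5 or uninjected late 2C library 3, 6 or 7 (adjusted p = 0.0839 to 0.118). It was also lost with the deposited values over 1 common divisor (log2 change 0.40, adjusted p = 0.173), with no filter (0.0552) and with only the compared groups in the fit (0.0811). The fall of Sf3b1 (-0.60) was lost without uninjected early 2C library 1 or late 2C library 5 (adjusted p = 0.0648 and 0.0564). With library totals alone it was -0.23 (adjusted p = 0.246) and with median-of-ratios scaling -0.30 (adjusted p = 0.169), so it was not called under either. Members that rose spanned a median of 7.23 kb of the genome and members that fell 16.5 kb, with ranges of 3.82 to 26.2 kb and 1.96 to 48.7 kb. The 10 members not called spanned a median of 6.63 kb (2.39 to 158 kb). Spans of the other genes of the table were not compared.

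The change in uninjected embryos and the difference between Duxbl and mCherry embryos at late 2C rest on different comparisons, although the uninjected late 2C libraries entered the fit of the second. Of the 17 members that rose between early and late 2C in uninjected embryos, 15 were called lower in Duxbl than in mCherry embryos, 0 higher, and 2 (Srsf9 and Srsf10) were not called. Among the 8670 tested genes that rose, 61.3% were called lower and 3.69% higher. Of the 18 members that fell, 7 were called higher in Duxbl embryos (Lsm1, Lsm3, Lsm6, Lsm11, Lsm14a, Snrpb2 and Srsf4), where 59.5% of the 6670 genes that fell were. Another 4 of the 18, Sf3b1, Sf3b2, Snrpd1 and Snrpd3, were called lower in Duxbl embryos, where 3.67% of such genes were. The remaining 7 were not called. Within the 18, the falls of Lsm10, Lsm14a, Sf3a2, Sf3b1, Snrpf and Srsf3 were called neither with library totals alone nor with median-of-ratios scaling. Those of Lsm1 and Snrpe were not called with library totals alone. Of the 10 members not called in uninjected embryos, 2 were called higher (Snrpg and Srsf12) and 5 lower. Among the 7712 tested genes not called there, 25.7% were called higher and 14.5% lower.

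Sf3b2, Snrpd1 and Snrpd3 thus fell in uninjected embryos and were lower still in Duxbl embryos, as was Sf3b1, whose fall in uninjected embryos was not called under 2 of the 3 other scalings. Snrpd1 had 65.6, 36, 79.5, 51.4 and 68 CPM in Duxbl late 2C and 289.6, 393, 395, 395 and 359 CPM in Duxbl early 2C embryos, a log2 change of -2.63 ± 0.20 (SE, adjusted p = 2.8e-15). In uninjected embryos it had 113 to 274 CPM (median 169) at late 2C and 289.5 to 425 CPM (median 357) at early 2C, a log2 change of -1.03 ± 0.18 (SE, adjusted p = 2.4e-06). The 2 stages did not overlap in either. Sf3b1 fell by 2.35 on the log2 scale in Duxbl embryos, against a log2 change of -0.60 in uninjected embryos, and Snrpd3 fell by 2.75 in Duxbl embryos, against -1.40 in uninjected embryos.

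Duxbl embryos followed a different course between the same stages. Between early and late 2C 6 members rose, 19 fell and 20 were not called, while among all genes 20.3% rose and 18.7% fell. The median of the members was -0.31 and that of all genes 0.01. With median-of-ratios scaling 9 members rose and 17 fell, with the median of all genes at 0.11. Of the 17 members that rose in uninjected embryos, 2 rose in Duxbl embryos (Srsf7 and Srsf11), 2 fell (Snrpa1 and Srsf5) and 13 were not called, where 24.8%, 9.66% and 65.6% of the genes that rose in uninjected embryos did so. Snrpd2 was among the 13, with 9.04, 5.77, 2.83, 4.66 and 8.04 CPM at late 2C and 5.32, 5.4, 5.97, 6.46 and 5.82 CPM at early 2C in Duxbl embryos. Its stages overlapped, and the log2 change was -0.02 ± 0.24 (SE, adjusted p = 0.97).

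Srsf7 rose in both kinds of embryo, by a log2 change of 1.86 in Duxbl and 3.16 in uninjected embryos. Snrpb2 fell in both, by a log2 change of -1.22 in Duxbl and -2.41 in uninjected embryos. Among the 7588 genes that fell in uninjected embryos, 42.5% also fell in Duxbl embryos, 47.9% were not called and 9.59% rose. Of the 18 members among them, 12 also fell in Duxbl embryos and 5 were not called. Lsm1 was the remaining one and rose in Duxbl embryos (log2 change 0.60 ± 0.18 (SE, adjusted p = 0.00711)), which was lost without Duxbl late 2C library 7 (adjusted p = 0.0703). Srsf12 rose to 17.6, 5.18, 64.2, 21.4 and 8.53 CPM in Duxbl embryos at late 2C, against 0.472, 2.18, 1.95, 0.343 and 1 CPM in Duxbl embryos at early 2C, a log2 change of 3.08 ± 0.39 (SE, adjusted p = 8.7e-09).

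**Figure D4:**
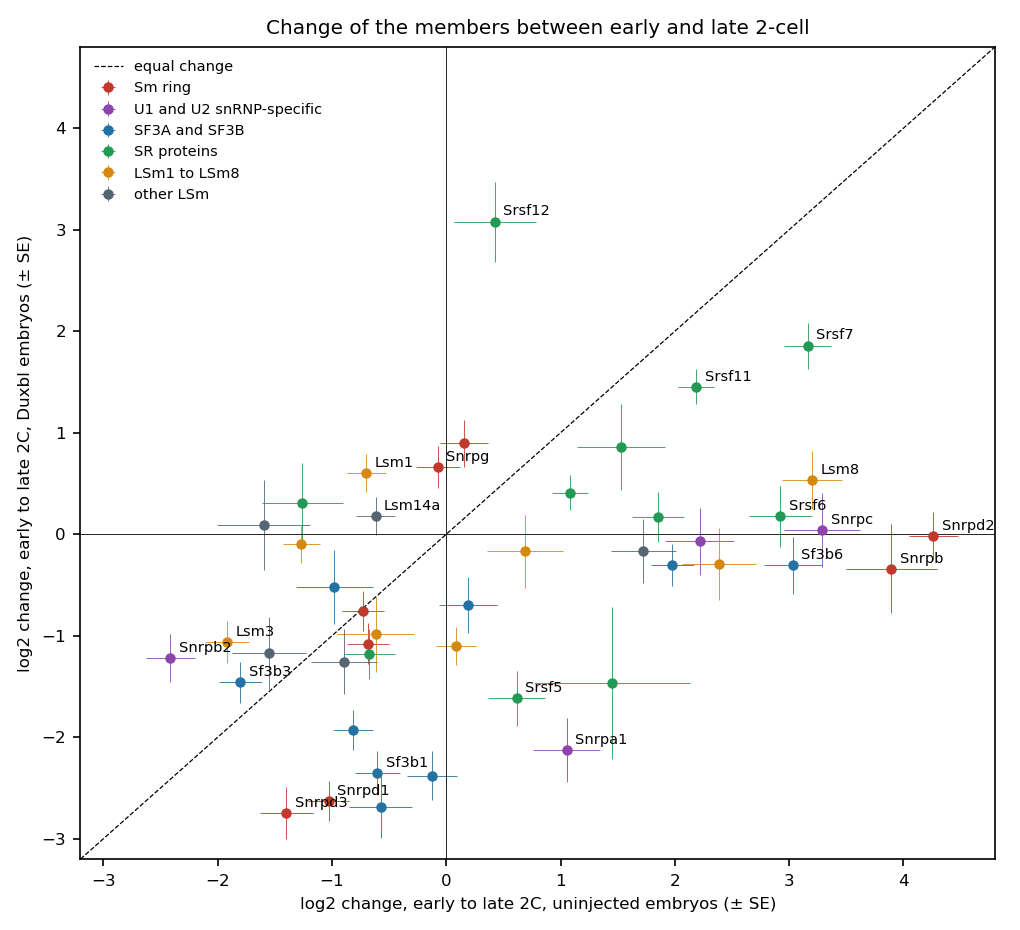
Log2 change between early and late 2C in uninjected embryos (horizontal axis) and in Duxbl embryos (vertical axis) for the 45 members, with SE and coloured by role; the dashed line marks equal change. Snrpd2 lies at 4.26 on the horizontal and -0.02 on the vertical axis, and Snrpd1 and Snrpd3 lie below the line.

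Whether the difference between Duxbl and mCherry embryos itself changed between early and late 2C was tested in the fit of all 9 groups. It did in 31 members, becoming lower in 24 and higher in 7, with a median of -0.99, whereas among all genes 23.6% became lower and 21.3% higher. Snrpd2 led with -4.64 ± 0.32 (SE, adjusted p = 2.5e-16), followed by Snrpb with -3.80 ± 0.59 (SE, adjusted p = 6.1e-07) and Snrpc with -3.78 ± 0.49 (SE, adjusted p = 1.3e-08). In the other direction Srsf12 had 2.92 ± 0.53 (SE, adjusted p = 1.1e-05), Snrpb2 1.365 ± 0.32 (SE, adjusted p = 0.000378) and Lsm1 1.361 ± 0.25 (SE, adjusted p = 1.1e-05). The call of Srsf2 was lost without any 1 of 10 libraries (adjusted p = 0.0557 to 0.0823), that of Sf3a3 without any 1 of 6 (0.0502 to 0.0746) and that of Snrpg without any 1 of 4 (0.0513 to 0.0903). Srsf2 also lost it with the deposited values over 1 divisor, with no filter and with voom weights (adjusted p = 0.0572, 0.0522 and 0.0933). Sf3a3 lost it with 1 divisor, with no filter and with only the compared groups (adjusted p = 0.0681, 0.0505 and 0.0753), and Snrpg with library totals alone (0.47, adjusted p = 0.2005).

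Between late 1C and early 2C few members changed. In uninjected embryos Sf3a3 and Srsf7 were called lower at early 2C and none higher, where 1.78% of all genes were called lower. Srsf7 had 42.6 to 90.7 CPM (median 65.2) at early 2C and 76.3 to 126 CPM (median 114) at late 1C, a log2 change of -0.73 ± 0.21 (SE, adjusted p = 0.0338). Sf3a3 had 37.4 to 92.2 CPM (median 78.8) at early 2C and 90.4 to 165 CPM (median 129) at late 1C, a log2 change of -0.92 ± 0.25 (SE, adjusted p = 0.0276). Their stages overlapped. The call of Sf3a3 was lost without any 1 of 5 libraries (uninjected early 2C 4 and 5, late 1C 1, 3 and 7; adjusted p = 0.0595 to 0.148), and that of Srsf7 without any 1 of 8 (early 2C 3, 4, 5 and 7, late 1C 3, 4, 5 and 7; 0.0569 to 0.138). Srsf7 also lost it with library totals alone, median-of-ratios scaling and voom weights (adjusted p = 0.0632, 0.0936 and 0.133). The largest rises were not called: Snrpc had 11 to 24.7 CPM (median 19.7) at early 2C and 5.93 to 17.2 CPM (median 7.88) at late 1C (log2 change 0.92, adjusted p = 0.169), and Lsm10 had 312 to 431 CPM (median 356) at early 2C and 107 to 361 CPM (median 205) at late 1C (log2 change 0.91, adjusted p = 0.0875). In Duxbl embryos limma called 0 members between these stages (0.920% of all genes), and voom called 0. The unadjusted limma p was under 0.05 in 2332 of all 28808 genes, among them 5 members.

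Genes that work beside the members were described from lists written with earlier results of these data known. Their counts stand beside 29.0% of all genes called lower and 27.2% higher in Duxbl than in mCherry embryos at late 2C, and beside 30.8% that rose and 26.3% that fell in uninjected embryos. Of 71 other spliceosome proteins 46 were called lower in Duxbl than in mCherry embryos at late 2C, 7 higher and 18 not called, with a median log2 fold change of -1.32. Zmat5 (-5.42), a protein of the U11/U12 snRNP of the minor spliceosome, and the cyclophilin Ppie (-4.09) had the smallest adjusted p among those lower, and Bcas2 (1.84) and Cwc15 (1.39), which belong to the Prp19 complex and its partners, among those higher. Of 19 factors that assemble Sm rings or carry snRNPs across the nuclear envelope 13 were lower, 1 higher and 5 not called, with a median of -1.90. Gemin5 (-5.13), which recognises snRNAs for the SMN complex, and the cap-binding protein Ncbp1 (-4.86) led those lower, and Coprs (1.60), a partner of the methyltransferase PRMT5, was the one higher. In uninjected embryos 13 of these 19 rose and 4 fell between early and late 2C, and of the 71 spliceosome proteins 36 rose and 15 fell.

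Of 9 kinases and import factors of SR proteins 5 were lower in Duxbl embryos, among them the import receptor Tnpo3 (-2.52) and the kinase Clk4 (-2.17), and 1 higher, the kinase Srpk2 (1.46). Of 27 hnRNP proteins, which bind nascent transcripts, 17 were lower, 4 higher and 6 not called (median -1.06). Hnrnpm (-3.12) and Hnrnpu (-1.90) were lower, and Ptbp2 (1.81) and Hnrnpul2 (1.24) higher. Of 13 decay partners of the LSm1 ring 6 were higher, 2 lower and 5 not called (median 0.57). Btg4 (2.11), an adaptor that brings the CCR4-NOT deadenylase to maternal mRNAs, and the deadenylase Cnot7 (1.85) were higher, and Ddx6 (-1.86) and the exonuclease Xrn1 (-1.36) lower. In uninjected embryos 10 of these 13 fell between early and late 2C, where 26.3% of all genes did, and 3 rose. Of 7 genes for the ends of histone mRNAs 2 were higher (Cstf2, 1.20, and Casp8ap2, 0.92), 1 lower (Cpsf3, -2.07) and 4 not called, with 27.2% of all genes called higher and 29.0% lower. These values are log2 fold changes of Duxbl over mCherry embryos at late 2C.

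Markers of other cells and of maternal RNA were measured beside these results. All 12 maternal embryo markers were detected in every group, and 9 were called higher in Duxbl than in mCherry embryos at late 2C, where 27.2% of all genes were. Their sum was 5598 to 7081 CPM in Duxbl, 2509 to 3234 CPM in mCherry and 2303 to 3290 CPM in uninjected embryos. Of 10 cumulus and granulosa markers 9 were in the table, and their sum was 16.8 to 59.6 CPM in Duxbl, 10.4 to 19.4 CPM in mCherry and 7.46 to 21.2 CPM in uninjected embryos, with Inhba at 0 in Duxbl and uninjected embryos. The 8 oviduct markers summed to 96.2 to 192 CPM in Duxbl, 52.0 to 162 CPM in mCherry and 44.6 to 159 CPM in uninjected embryos. The 8 sperm markers summed to 4.06 to 32.1 CPM in Duxbl, 3.20 to 9.87 CPM in mCherry and 1.87 to 6.78 CPM in uninjected embryos, with Smcp at 0 in both controls. The 6 blood markers in the table summed to 7.23 to 15.8 CPM in Duxbl, 34.1 to 53.2 CPM in mCherry and 25.1 to 68 CPM in uninjected embryos. Of 6 cumulus and granulosa markers tested between Duxbl and mCherry embryos at late 2C, 3 were called higher and 1 lower. Of 6 oviduct markers tested 3 were higher and 0 lower, of 4 sperm markers 1 higher and 3 lower. Of 4 blood markers 0 were higher and 2 lower, where 29.0% of all genes were called lower. The part of maternal RNA and of other cells in the members' differences was not tested.

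Several members share sequence with other genes, which could divert reads. Snrpn shared 18.9% of its 75-base stretches with Gm38393, which also overlaps it, Snrpf 18.8% with Gm13092, Lsm7 11.9% with Gm10146, Snrpg 9.78% with Gm8186 and Snrpe 7.25% with Snrpert, and for Lsm5 the share was 15.5%. The share was 7.95% for Srsf10, 7.71% for Lsm12, 7.64% for Srsf3 and 7.32% for Srsf5. Snrpd2 shared 4.75% and Snrpc 2.61%. Snrpb, Snrpb2, Sf3b6, Srsf6, Srsf12, Lsm1, Lsm4, Lsm8 and Lsm14a shared none (GENCODE M21 transcripts). Lsm14a, Snrpd3, Srsf1 and Srsf4 were among the members that overlap another gene, and their reads could not be separated by strand.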

How the data were processed

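The authors' deposited table holds 1 whole number per gene and library with mm39 coordinates, used here as a score rather than as a read count. Its whole numbers skip values in 19 of the 50 libraries between 1 and 20, so the authors' values appear to be counts scaled per library and rounded. The submitters' processing notes name STAR 2.7.10a, featureCounts 2.0.4, DESeq2 1.36.0, DESeq, Picard 3.0.0 and Trimmomatic 0.39, with roles not given in the sources used here. Per the labels' protocols, cDNA came from a SMART-Seq v4 kit and libraries from Nextera XT, read as pairs of 75 bases, without strand.

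Values were divided by library totals times TMM factors (30% of ratios and 5% of abundances trimmed), giving CPM. A gene was tested if it reached 10 in a number of libraries equal to the smallest group size, and 1 CPM was added before log2. limma 3.58.1 (R 4.3.3) with a trended, robust variance prior fitted the 3 groups of a stage for comparisons within it, on factors computed within that stage, and all 9 groups for changes between stages, including that of the difference between Duxbl and mCherry. Tests were two-sided with Benjamini-Hochberg adjustment over all genes tested. All 45 members were tested in every comparison. Levels in the text use factors over all 50 libraries, whose library sizes differ from those within a stage by a ratio of 0.781 to 1.12. The fit was tested on simulated data.

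The members and gene lists were chosen with earlier results of these data known. Library values are given, by rule, for the 2 called members with the smallest adjusted p in each direction of each role at late 2C with at least 10 CPM in the higher group, and for the 2 largest rises and falls between adjacent stages of uninjected embryos, 21 members in all. Those of Snrpd1 and Srsf2 were added after they were seen. In other lists up to 2 called genes in each direction are named. Library numbers of the labels paired the samples in 1 setting alone: at late 1C the 4 same-numbered Duxbl and mCherry libraries deviated together (correlations 0.205 to 0.346 over genes), and 0 members were called with that block either. Alternatives were 3 other scalings, no filter, a pseudocount of 0.1 CPM, voom weights, other sets of groups in the fit, a replicate block, uninjected embryos as the control, leaving out each library in turn and, added after seeing the data, the longest coding transcript as the length for levels per kb.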

Additional observations from a re-analysis of the deposited data

Results flagged for a closer look

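The difference between Duxbl and mCherry embryos changed between early and late 2C in 31 members (limma, adjusted p under 0.05). Among them it changed by -4.64 on the log2 scale in Snrpd2 and -3.80 in Snrpb, both lower in Duxbl embryos at late 2C, and by 1.365 in Snrpb2 and 2.92 in Srsf12, both higher.

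In 72 groups of values, 8 held 1 library far from the rest. The cutoff used would flag about 1 in 20 groups if values were normally distributed and groups independent. That rate does not carry over to CPM of genes measured in the same libraries, so no excess over chance was read from the 8. Among Duxbl late 2C libraries, library 7 had 40.95 CPM of Sf3b6, with the others at 12.1 to 17.7 CPM, and 40.6 CPM of Srsf6, with the others at 9.15 to 15.8 CPM. The same library had 3.66 CPM of Lsm4, with the others at 8.94 to 10.8 CPM. Library 4 had 64.2 CPM of Srsf12, with the others at 5.18 to 21.4 CPM, and 50.2 CPM of Sf3a3, with the others at 29.9 to 34.2 CPM. Among mCherry late 2C libraries, library 1 had 2.46 CPM of Srsf12, with the others at 0 to 0.773 CPM, and library 5 had 24.7 CPM of Lsm11, with the others at 7.32 to 13.5 CPM. Summed over the 45 members, Duxbl early 2C library 3 held 4897 CPM and the other libraries of that group 5277 to 5375 CPM.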

How the results depend on the processing

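Between Duxbl and mCherry embryos at late 2C the alternatives called 32 to 36 members, and 31 to 34 when 1 library was left out, against 33. Library totals alone gave 7 higher and 29 lower, with the median of all genes at -0.26. Uninjected embryos between early and late 2C gave 31 to 38 calls, against 35, Duxbl embryos 24 to 26, against 25, and the change of the difference between Duxbl and mCherry 29 to 34, against 31. No called member changed sign under any alternative. Between Duxbl and mCherry embryos at late 1C and early 2C, and between mCherry and uninjected embryos at each stage, 0 members were called under every alternative.

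Between late 1C and early 2C, uninjected embryos had 2 calls. This became 1 with library totals alone or median-of-ratios scaling, 5 with only the compared groups in the fit, and 0 to 2 when 1 library was left out. Duxbl embryos had 0 calls, 2 with only the compared groups and 0 to 1 when 1 library was left out. The cause of these changes was not tested.

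With the library number as a replicate block, uninjected embryos had 5 calls and Duxbl embryos 1 between late 1C and early 2C, and at late 2C the difference between Duxbl and mCherry embryos had 35. Same-numbered Duxbl and mCherry libraries correlated at 0.0693 to 0.333 at early 2C, with 4 of 5 pairs above 0.1. At late 2C they correlated at -0.0058 to 0.0887.

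The deposited values appear scaled and give no depth, so low genes such as Srsf12 and Srsf4 carry an unknown counting error, and the log2(CPM + 1) scale understates their change.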
